A study of Mus musculus with 15 samples.

Results

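The sirtuin family was described across 15 RNA-seq libraries of sorted mouse skin tumour cells. Its members, Sirt1 to Sirt7, were taken by their Ensembl gene identifiers and make up 7 of the 37583 genes counted. The KO-labelled animals were C57BL/6 mice carrying SIRT6 flox/flox alleles and K14-cre, a Cre recombinase driven by the keratin 14 promoter, which limits deletion to keratinocytes and their descendants. The WT animals were C57BL/6 mice with no such alleles named. Skin tumours of both genotypes came from treatment over more than 24 weeks with the mutagen DMBA and the phorbol ester TPA. Cells were sorted on the surface proteins CD34 and integrin alpha 6 (a6) into populations positive for CD34 with high a6 (CD34+ a6-high), negative for CD34 with high a6 (CD34- a6-high) and negative for CD34 with low a6 (a6-low), each with 2 KO-labelled and 3 WT libraries. An animal label here is a genotype with its replicate number. No label states that replicates are different mice, and the p-values then cover only the spread among these libraries, some of it perhaps technical.

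Sirtuins are enzymes that use NAD to remove acetyl and other acyl groups from lysines, and some also transfer ADP-ribose. SIRT1, SIRT6 and SIRT7 act mainly in the nucleus, SIRT7 chiefly in the nucleolus, SIRT2 acts mainly in the cytosol, and SIRT3, SIRT4 and SIRT5 act in mitochondria. SIRT6 deacetylates histone H3 at promoters of glycolytic genes, which it represses as a co-repressor of HIF1A, and its loss is known to raise glycolysis in several tissues.

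The bases upstream of the annotated start are shown for Sirt1, the member whose level varied most between libraries. The run is the 250 bases before the RefSeq start (GRCm38.p6, minus strand of the assembly), read 5′ to 3′ toward the gene. Capitals mark CACGTG, the E-box bound by MYC-type factors, and GGGCGG, a GC box of SP1-type factors, each on either strand.
Sirt1, chr10:63339036-63339285: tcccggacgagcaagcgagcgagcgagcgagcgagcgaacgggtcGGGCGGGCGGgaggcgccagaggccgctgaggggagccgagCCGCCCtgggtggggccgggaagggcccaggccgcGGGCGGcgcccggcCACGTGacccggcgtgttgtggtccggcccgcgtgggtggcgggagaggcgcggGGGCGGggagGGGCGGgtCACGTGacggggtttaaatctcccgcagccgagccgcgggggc
For Sirt1 there were 2 CACGTG matches, which begin 115 and 43 bases before the start, and 6 GGGCGG matches, a pair of which overlap. The same windows of Sirt6, the targeted gene, and of Sirt7 lie largely in annotated exons and are not printed. The Sirt6 window before its upstream start held 2 matches to CGGAAG, a core of ETS-type factors, and the Sirt7 window held 1 GGGCGG match and 1 CGGAAG match. Neither held CACGTG. Over 32851 such windows of mouse genes, CACGTG was present in 6.02%, GGGCGG in 32.7% and CGGAAG in 13.6%. The Sirt1 window held 39 CpG pairs, more than 98.4% of these windows, and 79.2% of its bases were G or C, against 12 CpG pairs and 48.8% for Sirt7. A letter match is a description of the window and not a binding site.

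Libraries held 10.08 to 28.62 M gene counts (median 20.27 M), and levels are given as CPM, the count of a gene scaled to 1000000 counts of its library after TMM scaling. Krt14, a basal keratinocyte keratin gene, reached 75000 CPM and was present in all 15 libraries, whereas the 5 T and natural killer cell markers summed to at most 0.581 CPM and the 6 fibroblast markers to at most 4.33 CPM. The fibroblast marker Lum was at 0 in all 15. Of the 5 neutrophil and mast cell markers Cpa3 and Mcpt4 were at 0 in all 15 and Kit in 8, while S100a8 and S100a9, which activated keratinocytes also express, were present in all 15, at up to 973 and 549 CPM. Itga6, which encodes a6, ranged over 67.9 to 174 CPM in 3 of the a6-low libraries, but stood at 445 CPM in that of KO replicate 2 and at 471 CPM in that of WT replicate 1, inside the 263 to 576 CPM of the 10 a6-high libraries. Log2 fold changes of single genes within or against the a6-low population are given with and without those 2 libraries. The Y-linked gene Ddx3y was expressed by KO replicate 2 (51.9 to 74.9 CPM), while the other 12 libraries had no more than 0.222 CPM, so calls that end without that animal label are given with their values.

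All 7 genes were expressed in every library, and Sirt7 and Sirt2 led. Per 1000 merged exon bases, Sirt7 averaged 15.4 ± 2.75 CPM and Sirt2 10.9 ± 1.90 CPM (SD, n = 15), and they were the highest and the next highest member in all 15 libraries. Sirt4 followed with 4.59 ± 1.08, Sirt1 with 3.82 ± 2.07 and Sirt6 with 2.65 ± 0.596 CPM per 1000 exon bases. The mitochondrial members Sirt3, at 1.12 ± 0.348, and Sirt5, at 0.885 ± 0.329, were lowest on that scale. The neighbours Sirt4 and Sirt1, Sirt1 and Sirt6, and Sirt3 and Sirt5 lay within 1 SD of each other. When levels were divided by the length of the longest transcript instead, Sirt2 (26.0) stood above Sirt7 (24.2) and Sirt5 (2.22) above Sirt3 (2.08), while the order of the middle 3 was the same. The order within the top and the bottom pair therefore depends on the length chosen.

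As a share of the summed level per exon length, Sirt7 took 39.0% on average, with 29.6% in the lowest and 47.7% in the highest library. Sirt2 took 27.6%, between 22.4% and 31.3%. Sirt1 took 9.96% on average but was the least even member, with 2.04% in the CD34+ a6-high library of WT replicate 3 and 22.7% in the a6-low library of WT replicate 1. Sirt4 took 11.6%, Sirt6 6.69%, Sirt3 2.87% and Sirt5 2.24%.

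**Figure D1:**
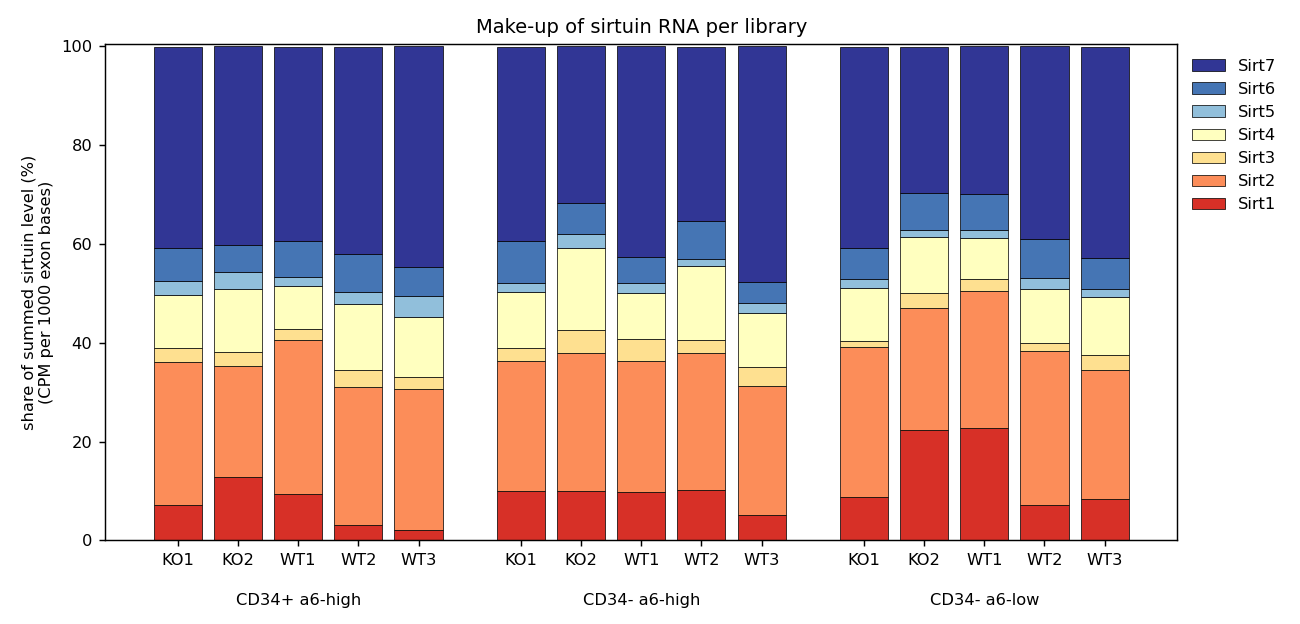
Share of each sirtuin gene in the summed sirtuin level (CPM per 1000 merged exon bases, in percent) in each of the 15 libraries, grouped by population with KO-labelled libraries left of WT. Sirt7 (29.6% to 47.7%) and Sirt2 (22.4% to 31.3%) fill most of each bar, and the Sirt1 segment varies most, between 2.04% and 22.7%.

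Sirt6, the NAD-dependent deacetylase gene targeted in the KO (ENSMUSG00000034748), was not lower at the level of the whole gene in every population. In CD34+ a6-high cells it was at 6.68 and 5.07 CPM in KO-labelled libraries, against 8.14, 9.60 and 7.05 CPM in WT. Both KO-labelled libraries were below all 3 WT libraries there, but in CD34- a6-high cells the groups overlapped, with 8.53 and 6.88 CPM in KO-labelled libraries and 5.41, 9.12 and 4.45 CPM in WT. In a6-low cells Sirt6 was at 7.23 and 7.34 CPM in KO-labelled libraries and at 7.48, 10.5 and 7.31 CPM in WT, where the lowest WT library lay between the 2 KO-labelled libraries. These values rest on 111 to 225 Sirt6 reads in KO-labelled libraries and 58 to 191 in WT.

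The log2 fold change of Sirt6, KO over WT, was -0.49 ± 0.33 (SE; 95% interval -1.21 to 0.23) in CD34+ a6-high, 0.28 ± 0.33 (-0.43 to 0.99) in CD34- a6-high and -0.21 ± 0.33 (-0.92 to 0.51) in a6-low cells. Without the 2 a6-low libraries of high Itga6 the last was -0.29. In the same order of populations the adjusted p-values from edgeR's quasi-likelihood test were 0.685, 0.772 and 0.919. With counts summed over populations for each animal label the change was -0.15 ± 0.26 (-0.78 to 0.47, edgeR adjusted p = 0.84). The sign of that sum turned to 0.03 without WT replicate 2. The counts take in all exons of Sirt6 and the labels do not name the floxed ones, so a transcript that lacks the deleted exons still counts and these values do not check the genotype label. In a bulk sample, fewer cells of a type and less RNA per cell cannot be told apart.

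Among the other nuclear members, Sirt7, which encodes the nucleolar sirtuin tied to ribosomal DNA transcription, was lower in KO-labelled libraries of both a6-high populations without overlap. It was at 75.8 and 68.9 CPM in KO-labelled CD34+ a6-high libraries, against 79.5, 95.8 and 98.8 CPM in WT. In CD34- a6-high cells it was at 71.8 and 63.7 CPM in KO-labelled libraries and at 79.9, 77.7 and 89.6 CPM in WT. In a6-low cells the groups overlapped, with 86.5 and 54.4 CPM in KO-labelled libraries and 57.8, 97.8 and 91.8 CPM in WT. The log2 fold change in CD34+ a6-high cells was -0.34 ± 0.25 (95% interval -0.88 to 0.20, edgeR adjusted p = 0.706), and over the sums it was -0.27 ± 0.20 (-0.75 to 0.20, adjusted p = 0.607), so neither passed the threshold of 0.05. Without the 3 libraries of KO replicate 2 the change over the sums was -0.11 for Sirt7 and -0.04 for Sirt6.

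Sirt1, which encodes a deacetylase of p53, FOXO factors and RELA, had 13.8 and 22.9 CPM in KO-labelled CD34+ a6-high libraries, against 19.9, 7.49 and 4.67 CPM in WT. The WT libraries spanned more than the difference between the groups (log2 0.77 ± 0.60, 95% interval -0.52 to 2.06, edgeR adjusted p = 0.714), and without the libraries of KO replicate 2 it was 0.36. In CD34- a6-high cells Sirt1 was at 19.0 and 20.7 CPM in KO-labelled libraries and at 19.2, 23.5 and 10.2 CPM in WT, and the groups overlapped there too.

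Sirt2, which encodes the cytosolic tubulin deacetylase, was at 52.9 and 37.6 CPM in KO-labelled CD34+ a6-high libraries, against 61.5, 62.3 and 62.0 CPM in WT. Both KO-labelled libraries were below the tightly grouped WT libraries. The log2 fold change was -0.45 ± 0.24 (95% interval -0.97 to 0.06, edgeR adjusted p = 0.655). Without the 3 libraries of KO replicate 2 it was -0.22, and Sirt6 and Sirt7 in that population were then at -0.30 and -0.26. In CD34- a6-high cells Sirt2 was at 47.0 and 55.3 CPM in KO-labelled libraries and at 48.4, 59.8 and 47.7 CPM in WT, with overlap. In a6-low cells it was at 63.0 and 44.6 CPM in KO-labelled libraries and at 52.4, 76.5 and 54.6 CPM in WT, with overlap as well.

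The mitochondrial members showed no separation of the genotypes in any population. Sirt3, which encodes the main mitochondrial deacetylase, ranged over 3.16 to 10.5 CPM in KO-labelled and 4.66 to 9.88 CPM in WT libraries. Sirt4, which encodes a lipoamidase and ADP-ribosyltransferase, ranged over 9.41 to 15.7 CPM in KO-labelled and 7.52 to 15.3 CPM in WT libraries. Sirt5, which encodes the desuccinylase of the family, ranged over 3.07 to 6.81 CPM in KO-labelled and 3.76 to 10.9 CPM in WT libraries.

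In none of the 3 populations was a sirtuin gene called between the genotypes: 0 of 7 passed edgeR's test at an adjusted p of 0.05, none had p below 0.05 before adjustment (0 of 7), and the count with DESeq2 was 0 of 7. Over all 14652 genes tested, 0.00683% were called in each population, and over the sums 0.00641%, also with 0 of 7 sirtuin genes. By DESeq2 the share of all genes called was 0.107% in CD34+ a6-high, 0.131% in CD34- a6-high and 0.0239% in a6-low cells and 0.569% over the sums. DESeq2 was run without edgeR's filter on low counts, so here and below its shares are of the 25123 genes with a p-value, or 25148 over the sums. DESeq2's own default filter on mean counts was left on. Genes it leaves out get no adjusted p and cannot be called, but stay in these shares. With the replicate number as a block 0 of 7 sirtuin genes were called, and 0.0137% of all genes in each population. A p that misses the threshold does not show that values did not differ, and the 95% intervals for Sirt6 still take in falls of 1.21, 0.43 and 0.92 on the log2 scale in the 3 populations. Non-overlap was common among all genes. KO-labelled and WT libraries did not overlap for 3 of 7 sirtuin genes in CD34+ a6-high cells (Sirt2, Sirt6 and Sirt7, all lower in KO), where 28.1% of all genes tested did not overlap. For CD34- a6-high cells it was 1 of 7 (Sirt7) beside 30.2% of all genes, and for a6-low cells 0 of 7 beside 14.9%. The median log2 fold change of the 7 members was -0.25, 0.17 and -0.21 in the 3 populations, beside 0.01, 0.05 and 0.04 over all genes tested. Whether the genotype difference itself differed between populations was tested as an interaction, and 0 of 7 members passed for CD34 or for a6 with edgeR (0 of 7 before adjustment) or with DESeq2, where 0% of all genes were called by edgeR and by DESeq2 0.00398% for CD34 and 0% for a6. Markers of other cells differed between libraries. The 4 melanocyte markers summed to 132 CPM in the a6-low library of KO replicate 1, to 1.55 to 4.32 CPM in the other 5 KO-labelled libraries and to 0.669 to 6.41 CPM in WT libraries. The neutrophil and mast cell markers summed to 68.5 to 645 CPM in KO-labelled and 81.1 to 1520 CPM in WT libraries. Nearly all of that sum was S100a8 and S100a9, which activated keratinocytes also express, so it does not show such cells. The 8 macrophage and dendritic cell markers summed to 31.6 to 178 CPM in KO-labelled and 9.74 to 103 CPM in WT libraries. The part of these cells in the sirtuin levels was not tested.

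**Figure D2:**
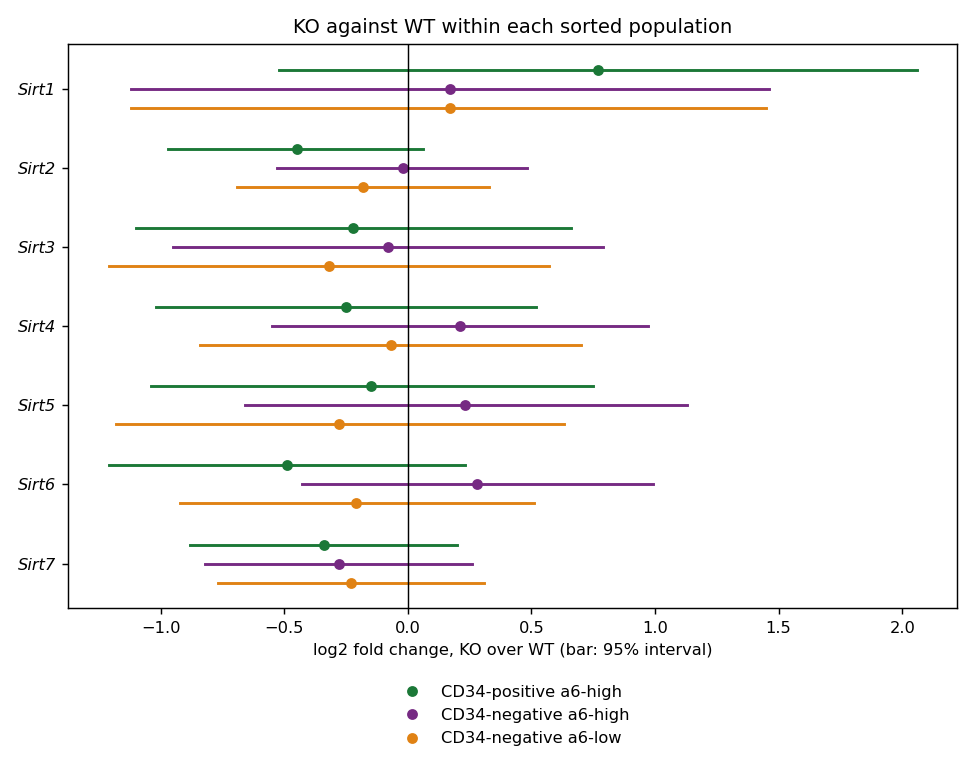
Log2 fold change of each sirtuin gene, KO over WT, in the 3 sorted populations (points, edgeR; bars, 95% intervals; 2 KO-labelled and 3 WT libraries each). Every bar crosses 0, and Sirt1 has the widest bars, reaching from -0.52 to 2.06 in CD34+ a6-high cells.

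Between the sorted populations, Sirt1 had its lowest mean in CD34+ a6-high cells and Sirt5 its highest. Sirt1 averaged 13.7 ± 7.79 CPM in CD34+ a6-high, 18.5 ± 4.98 CPM in CD34- a6-high and 28.8 ± 13.8 CPM in a6-low libraries (SD, n = 5 each). Sirt5 averaged 7.06 ± 2.40, 4.73 (3.79 to 6.61) and 4.37 ± 1.34 CPM in the same order of populations. Sirt3 had its highest mean in CD34- a6-high cells, at 8.16 ± 2.19 CPM, against 6.46 ± 1.66 CPM in CD34+ a6-high and 5.40 ± 1.66 CPM in a6-low cells. Libraries of different populations overlapped for all 3 genes. Within a6-high cells, the CD34+ library had less Sirt1 than the CD34- library in only 3 of 5 animal labels (edgeR adjusted p = 0.75). For Sirt3 that count was also 3 of 5 (edgeR adjusted p = 0.657).

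For Sirt1 the a6-low values were 19.3 and 42.5 CPM in KO-labelled replicates 1 and 2 and 45.3, 18.5 and 18.5 CPM in WT replicates 1, 2 and 3. The CD34+ a6-high library was lower than the a6-low library in 5 of 5 animal labels, with ratios between 0.253 and 0.714. The highest a6-low values belonged to KO replicate 2 and WT replicate 1, which also had the high Itga6. CD34+ a6-high over a6-low, the log2 fold change was -1.05 ± 0.43 (95% interval -1.98 to -0.13, edgeR adjusted p = 0.174). Blocking on the animal label gave -1.09 with an edgeR adjusted p of 0.0266, which passed. With no filter on low counts it was -1.06 with an edgeR adjusted p of 0.00789, which also passed, beside 1900 of 25149 genes (7.55%). Without the 2 a6-low libraries of high Itga6 it was -0.43 (adjusted p = 0.627). Leaving out single libraries gave -1.46 to -0.72, with -1.46 without the CD34+ library of WT replicate 1, and adjusted p-values of 0.0597 to 0.462. Over the other alternatives the adjusted p lay between 0.0936 with DESeq2 and 0.503 without the 3 libraries of KO replicate 2.

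Sirt5 was at 6.42 and 6.81 CPM in KO-labelled CD34+ a6-high libraries and at 4.26, 6.91 and 10.9 CPM in WT. In a6-low libraries it was at 4.65 and 3.07 CPM in KO-labelled and at 3.76, 6.55 and 3.85 CPM in WT. The CD34+ a6-high library was the higher in 5 of 5 animal labels, by ratios of 1.06 to 2.84. The log2 fold change was 0.71 ± 0.29 (95% interval 0.07 to 1.35, edgeR adjusted p = 0.181), and it was 0.51 without the 2 a6-low libraries of high Itga6. These are low levels, on 58 to 153 reads per library. Against CD34- a6-high cells, where Sirt5 was at 3.79 and 6.61 CPM in KO-labelled and 4.61, 4.20 and 4.45 CPM in WT libraries, the change was 0.54 ± 0.29 (-0.09 to 1.17, adjusted p = 0.441).

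Sirt3 was at 5.31 and 10.5 CPM in KO-labelled CD34- a6-high libraries and at 9.88, 6.54 and 8.59 CPM in WT. In a6-low libraries it was at 3.16 and 6.26 CPM in KO-labelled and 5.36, 4.66 and 7.56 CPM in WT. These are low levels too, on 42 to 239 Sirt3 reads per library. The a6-high library was the higher in 5 of 5 animal labels, by ratios of 1.14 to 1.84, although no label states that these libraries are pairs. The log2 fold change, a6-high over a6-low, was 0.62 ± 0.29 (95% interval 0.00 to 1.24, edgeR adjusted p = 0.451). It was 0.88 without the 2 a6-low libraries of high Itga6. Exons of Sirt3 share 418 bases with Ric8a and 342 bases with Psmd13 on the opposite strand, 7.0% and 5.7% of its exon bases. The library kit does not mark strand, so reads from those bases cannot be assigned to a gene by strand.

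Sirt6 levels overlapped between all 3 populations. Within a6-high cells, CD34+ over CD34-, its log2 fold change was -0.01 ± 0.23 (95% interval -0.51 to 0.50, edgeR adjusted p = 0.998), a value whose sign turned under several alternatives, between -0.11 and 0.18 with single libraries left out. It was -0.16 ± 0.23 (-0.67 to 0.34) for a6-high over a6-low and -0.17 ± 0.23 (-0.67 to 0.34) for CD34+ a6-high over a6-low cells, and without the 2 a6-low libraries of high Itga6 these were -0.19 and -0.20. Sirt2 averaged 55.2 ± 10.6, 51.7 ± 5.64 and 58.2 ± 12.2 CPM in CD34+ a6-high, CD34- a6-high and a6-low libraries, and Sirt4 averaged 10.9 ± 2.41, 11.7 ± 3.58 and 10.5 ± 2.03 CPM, with overlap throughout.

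Apart from the Sirt1 calls with the block or with no filter on low counts given above, edgeR called no member between populations. Within a6-high cells, CD34+ against CD34-, 0 of 7 passed, 0 of 7 were under 0.05 before adjustment, beside 15.1% of all genes, and 0 of 7 passed with DESeq2, where 1.17% of all genes tested were called by edgeR and 3.37% by DESeq2. For a6-high against a6-low cells 0 of 7 passed, 1 of 7 (Sirt3) was under 0.05 before adjustment, beside 11.1% of all genes, and 0 of 7 passed with DESeq2, where 0.00683% of all genes were called by edgeR and 0.904% by DESeq2. For CD34+ a6-high against a6-low cells 0 of 7 passed, 2 of 7 (Sirt1 and Sirt5) were under 0.05 before adjustment, beside 21.6% of all genes, and 0 of 7 passed with DESeq2, where 4.93% of all genes were called by edgeR and 6.23% by DESeq2. With the block 1 of 7 (Sirt1) passed in that last comparison, where 11.8% of all genes did, and 0 of 7 passed in the other 2, where 5.41% and 0.41% did. The same direction in all 5 animal labels, as for Sirt1 and Sirt5 there, was seen in 29.1% of all genes tested. For Sirt3 in a6-high against a6-low cells that share was 14.8%, and for CD34+ against CD34- a6-high cells, where no member kept one direction, it was 20.3%. The 7 endothelial markers differed between the populations. Their summed level was 18.3 to 71.3 CPM in CD34+ a6-high, 5.21 to 13.6 CPM in CD34- a6-high and 5.05 to 24.7 CPM in a6-low libraries. Cdh5 was at 0 in 7 of 15 libraries. The 6 tested were all higher in CD34+ than in CD34- a6-high cells (median log2 2.19). They were also all lower in CD34- a6-high than in a6-low cells (median log2 -1.22), and edgeR called 0 of 6 each time. The 6 suprabasal keratinocyte markers summed to 5310 to 17800 CPM in CD34+ a6-high, 7760 to 13900 CPM in CD34- a6-high and 6150 to 39600 CPM in a6-low libraries. The 8 macrophage and dendritic cell markers summed to 21.2 to 43.4 CPM in CD34+ a6-high, 9.74 to 126 CPM in CD34- a6-high and 31.6 to 178 CPM in a6-low libraries. The neutrophil and mast cell markers summed to 89.1 to 314 CPM in CD34+ a6-high, 68.5 to 490 CPM in CD34- a6-high and 205 to 1520 CPM in a6-low libraries. Nearly all of this sum was again S100a8 and S100a9. The part of these cells in the differences was not tested.

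**Figure D3:**
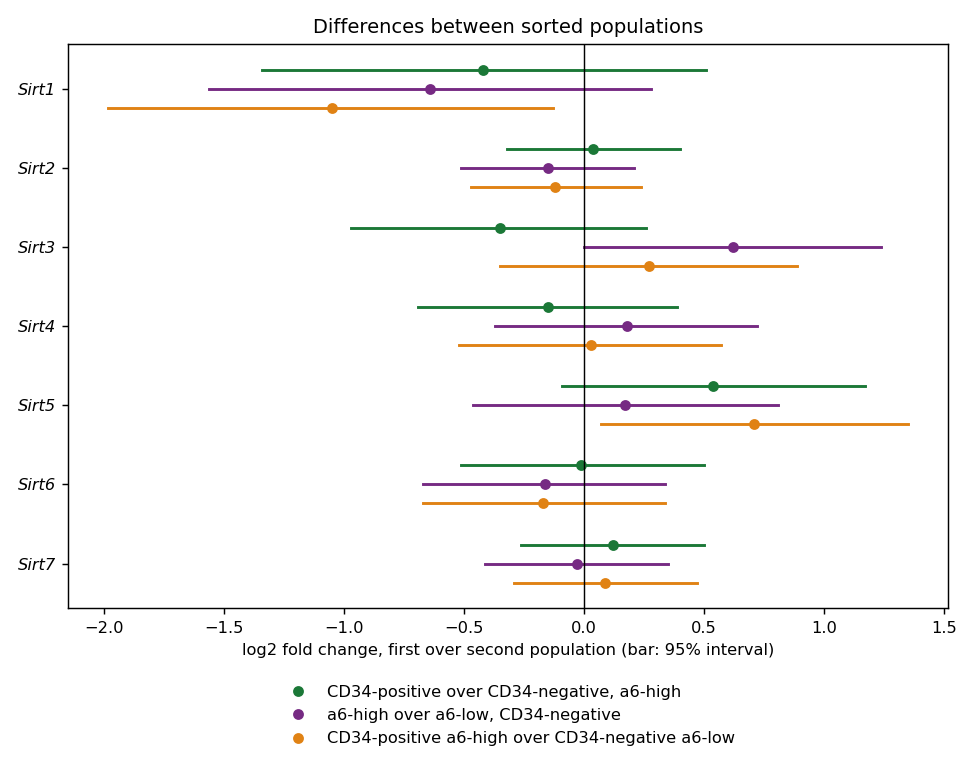
Log2 fold change of each sirtuin gene between sorted populations, first over second population (points, edgeR; bars, 95% intervals; 5 libraries per population). For CD34+ a6-high over a6-low cells the Sirt1 bar lies below 0 (-1.98 to -0.13) and the Sirt5 bar above 0 (0.07 to 1.35), and with low counts filtered and no block neither passed after adjustment.

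Sirt1 was the most variable member. Its coefficient of variation over the 15 libraries was 54.1%, against 37.2% for Sirt5, 31.2% for Sirt3, 23.5% for Sirt4, 22.5% for Sirt6, 17.9% for Sirt7 and 17.4% for Sirt2. Within groups, its biological coefficient of variation as edgeR estimates it was 46.2%, higher than that of 90.5% of the 3795 genes of like abundance. For the other 6 it was 21% to 33.5%, higher than that of 23% to 47.8% of genes of like abundance. The antisense gene Gm16145, which shares 65 exon bases with Sirt1, was at 0 in all 15 libraries.

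**Figure D4:**
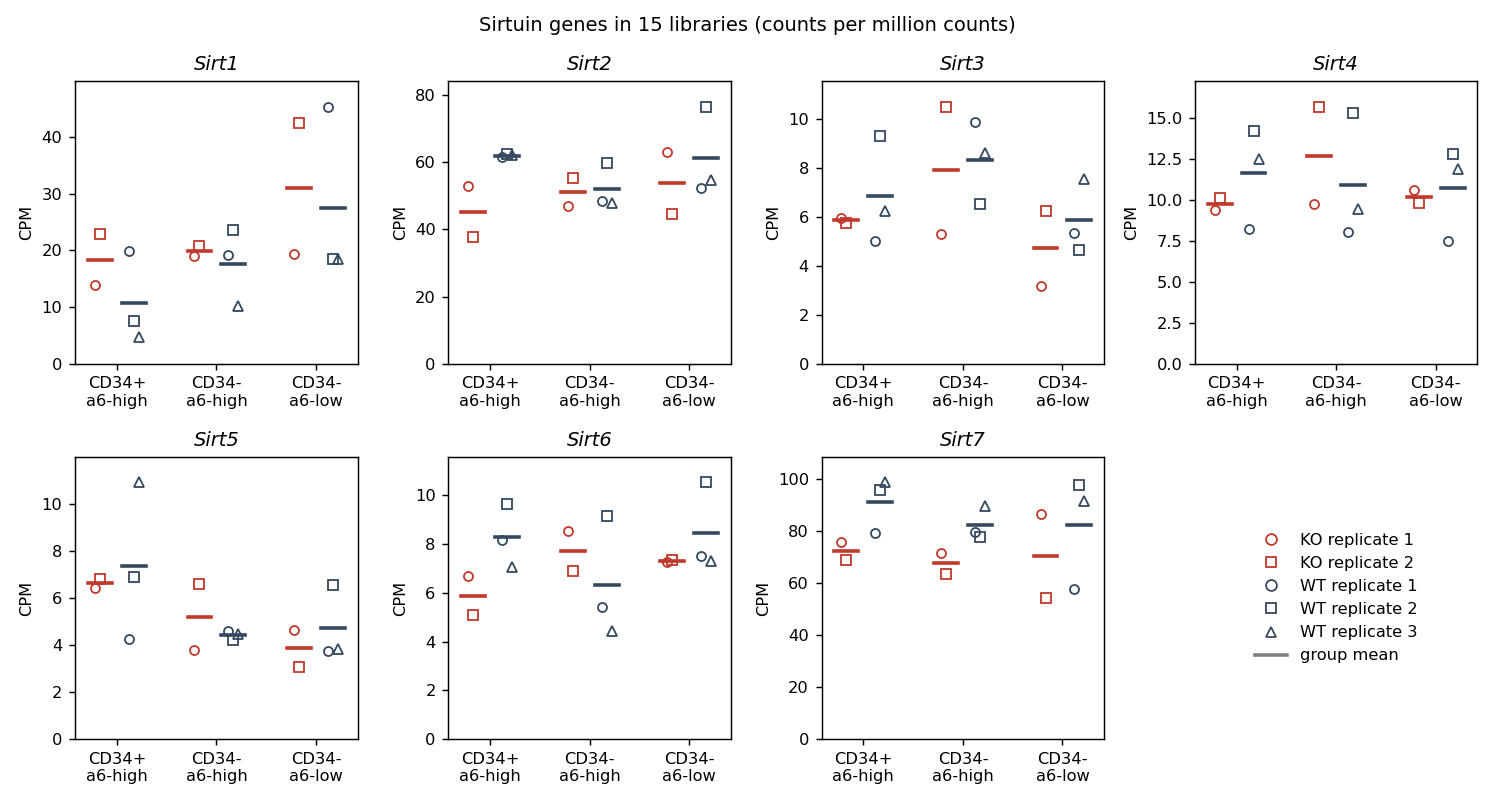
CPM of each sirtuin gene in each of the 15 libraries by population, with KO-labelled libraries left of WT libraries and horizontal lines at group means. Sirt1 spans 4.67 to 45.3 CPM, and Sirt2 and Sirt7 are the highest genes per count, at up to 76.5 and 98.8 CPM.

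Across the 15 libraries Sirt1 and Sirt7 varied in opposite directions (Pearson r = -0.79 on log2(CPM + 1)), and so did Sirt1 and Sirt5 (r = -0.73), while Sirt2 and Sirt6 varied together (r = 0.70). These are descriptions over libraries that share genotype, population and animal label, and CPM values of a library share its scaling. The libraries with most Sirt1, KO replicate 2 (42.5 CPM) and WT replicate 1 (45.3 CPM) of the a6-low population, had the least Sirt7, 54.4 and 57.8 CPM. The library with least Sirt1, the CD34+ a6-high library of WT replicate 3 (4.67 CPM), had the most Sirt7, 98.8 CPM. No other pair of members had an r beyond 0.59 in size.

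**Figure D5:**
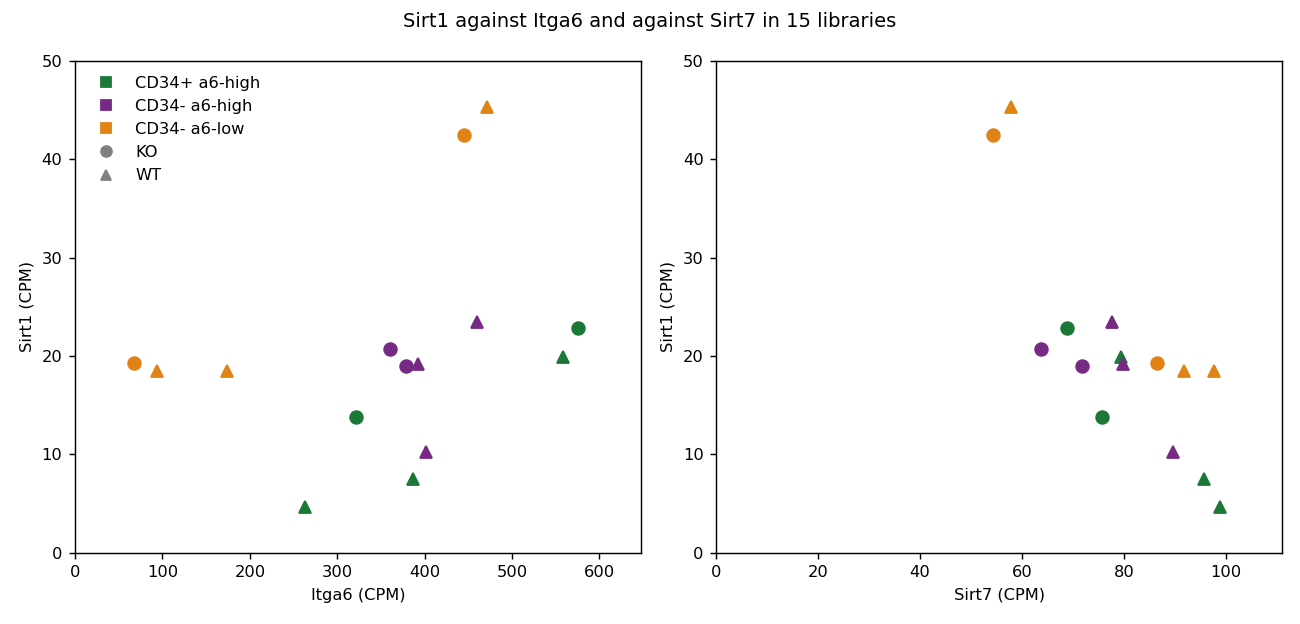
Sirt1 level (CPM, vertical axes) against Itga6 (left) and Sirt7 (right) in 15 libraries, coloured by population, with circles for KO-labelled and triangles for WT libraries. The 2 a6-low libraries with 42.5 and 45.3 CPM of Sirt1 have 445 and 471 CPM of Itga6 and the lowest Sirt7 levels, 54.4 and 57.8 CPM.

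The genes whose levels were most like each member over the 15 libraries were listed by Pearson r of log2(CPM + 1). For Sirt1 they were Zbtb2 (r = 0.96), Wsb1 (0.94) and Phf13 (0.93). For Sirt7 they were Gmppa (0.96), Rars2 (0.94) and Psmc2 (0.94). Sirt2 was most like Psenen (0.87), Hsd17b4 (0.86) and Bmp7 (0.83), and Sirt3 most like Tmem9 (0.88), H2afv (0.86) and Stmn1 (0.86). Sirt4 was most like Appl2 (0.85), Tmem230 (0.82) and Tab1 (0.82), and Sirt5 most like Hgsnat (0.86), Pomk (0.83) and Htatip2 (0.81). Sirt6 had the loosest likeness, with Slc25a20 (0.78), Gm2a (0.77) and Rnf214 (0.74). These r values are the highest among all tested genes of that abundance and carry no test.

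Genes around the sirtuins were taken as 5 lists. Between the genotypes, over sums per animal label, edgeR called 0 of 11 NAD synthesis genes, 0 of 14 other NAD-using enzymes, 0 of 10 zinc-dependent histone deacetylases (the Hdac genes), 0 of 9 genes of the list of Hif1a and glycolytic genes tied to SIRT6 and 0 of 16 sirtuin regulators and substrates, where 1, 4, 0, 2 and 3 were under 0.05 before adjustment, and with DESeq2 the count was 0 in each. Over all genes tested in the sums 0.00641% were called and 10.6% were under 0.05 before adjustment. The medians of the 5 lists were 0.10, 0.38, -0.07, -0.06 and 0.15 on the log2 scale, KO over WT, beside 0.03 over all genes tested. Slc2a1, which encodes the glucose transporter GLUT1, averaged 499 ± 131 CPM in KO-labelled (n = 6) and 301 ± 108 CPM in WT libraries (n = 9), with a log2 fold change of 0.63 ± 0.21 over the sums (edgeR adjusted p = 0.461). Nampt, which encodes the rate-limiting enzyme of NAD salvage, averaged 30.9 ± 4.43 CPM in KO-labelled and 19.5 ± 6.21 CPM in WT libraries (0.60 ± 0.23, adjusted p = 0.461). Rps19bp1, which encodes AROS, an activator of SIRT1 in human cells, averaged 63.6 ± 8.87 CPM in KO-labelled and 119 ± 33.6 CPM in WT libraries (-0.87 ± 0.24, adjusted p = 0.461). Parp14, which encodes an ADP-ribosyltransferase, averaged 3.83 ± 3.14 CPM in KO-labelled and 1.01 ± 0.644 CPM in WT libraries (1.88 ± 0.50, edgeR adjusted p = 0.461). Leaving out KO replicate 1 gave 1.15 for Parp14, and leaving out KO replicate 2 gave 2.37. None of these 4 passed the threshold. With the populations pooled, libraries of the genotypes overlapped for each, which does not show overlap within any single population. Within the single populations 0 genes of any list were called by edgeR or DESeq2, and 0 to 3 genes of a list were under 0.05 before adjustment. Of all genes tested, 7.59%, 9.59% and 4.69% were under 0.05 in CD34+ a6-high, CD34- a6-high and a6-low cells.

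Between populations a few of these genes were called. Hdac6, which encodes a cytosolic tubulin deacetylase like SIRT2, averaged 28.9 ± 5.22 CPM in CD34+ a6-high and 14.7 ± 2.37 CPM in CD34- a6-high libraries, and it lay between 11.9 and 19.7 CPM in a6-low libraries. It rose in CD34+ cells against CD34- a6-high cells (log2 1.04 ± 0.19, edgeR adjusted p = 0.0252) and against a6-low cells (0.96 ± 0.19, adjusted p = 0.0193), as 1 of 10 Hdac genes tested each time. Of all genes tested, edgeR called 1.17% and 4.93% in the same order. Of the 10 a6-high libraries, leaving out any of 8 ended the first call, with adjusted p-values of 0.0502 to 0.121, and it held without the CD34+ library of WT replicate 2 or the CD34- library of WT replicate 3. The second ended on leaving out KO replicate 1 of the a6-low (adjusted p = 0.0555) or the CD34+ population (0.0875), or KO replicate 2 of the CD34+ population (0.0561). Without the 3 libraries of KO replicate 2 both calls ended (adjusted p = 0.173 and 0.0956), and without the 2 a6-low libraries of high Itga6 the second was at 1.15 (adjusted p = 0.0129). Ldha, which encodes the lactate dehydrogenase A subunit and is a SIRT6 target, averaged 6470 ± 1760 CPM in CD34+ and 3410 ± 360 CPM in CD34- a6-high libraries (0.91 ± 0.21, adjusted p = 0.0599), and it passed with the animal label as a block (0.88, edgeR adjusted p = 0.0108) and with DESeq2 (adjusted p = 0.00278). With the block Nadk, which encodes NAD kinase (0.55), and Parp10 (-1.45) also passed in that comparison, where 5.41% of all genes passed.

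In CD34+ a6-high against a6-low cells, 3 further list genes fell. Slc25a51, which encodes the mitochondrial NAD carrier, averaged 30.1 ± 3.65 CPM in CD34+ a6-high and 52.8 ± 12.0 CPM in a6-low libraries (log2 -0.82 ± 0.17, edgeR adjusted p = 0.0246), as 1 of 10 NAD synthesis genes tested. Rela, which encodes an NF-kappaB subunit deacetylated by SIRT1, averaged 116 ± 9.33 CPM in CD34+ a6-high and 283 ± 167 CPM in a6-low libraries (-1.34 ± 0.26, adjusted p = 0.018). Acss1, which encodes a mitochondrial acetyl-CoA synthetase deacetylated by SIRT3, averaged 0.543 ± 0.270 CPM in CD34+ a6-high and 2.59 ± 0.885 CPM in a6-low libraries (-2.33 ± 0.49, adjusted p = 0.0232). Its levels were very low, at 0.239 to 0.946 CPM in the CD34+ a6-high libraries, so few reads carry that change. Rela and Acss1 were 2 of 16 regulators and substrates tested, and 4.93% of all genes tested were called in this comparison. Without the 2 a6-low libraries of high Itga6, Rela was at -0.68 and Acss1 at -2.38 and both still passed (adjusted p = 0.0165 and 0.0284), while Slc25a51 was at -0.61 and did not (adjusted p = 0.0702). Leaving out the CD34+ library of KO replicate 1 or 2 ended all 3 calls, with adjusted p-values of 0.0624 to 0.121. Without the 3 libraries of KO replicate 2 all 3 calls ended as well, with Slc25a51 at -0.68 (adjusted p = 0.15), Rela at -0.82 (0.0854) and Acss1 at -2.19 (0.153). Rela was at -0.79 and still passed when KO replicate 2 was left out of the a6-low population. The calls for Slc25a51 and Acss1 also ended without the CD34+ library of WT replicate 3 (0.0584 and 0.0513), and that for Slc25a51 on leaving out KO replicate 2 of the a6-low population (0.0673). With the block, Nadk and Ldha were also called higher and Parp4, Parp8, Parp9 and Parp10 lower in that comparison, where 11.8% of all genes were called. For a6-high against a6-low cells edgeR called 0 genes of the 5 lists, where 2, 2, 0, 1 and 4 were under 0.05 before adjustment, and by DESeq2 Rela alone passed, lower in a6-high cells. Of all genes, 11.1% were under 0.05 before adjustment there, and 0.00683% were called by edgeR and 0.904% by DESeq2.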

How the data were processed

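RNA of sorted cells was copied to cDNA with a low-input kit that does not mark strand, per the labels' protocols. The authors deposited whole-number counts per Ensembl gene, not normalized in any way. The submitters' processing notes name STAR 2.3.0, Picard 1.100, HTSeq 0.6.0 and mm9 without saying what each did. The release of the annotation was not given in the sources used here, and the 5 entries that name no gene (multiply aligned reads 29.86% to 38.04%, reads outside genes 2.61% to 5.13%, ambiguous reads 1.86% to 2.2%) were left out. Symbols were matched for 32860 genes (87.4%) with GENCODE M21, which is of another build and gave names, exon lengths and overlaps only. Upstream sequences came from RefSeq (GRCm38.p6) and all 7 members matched.

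Counts of all 15 libraries were fitted with edgeR 4.0.16 in R 4.3.3 (TMM, filterByExpr, 14652 genes, a coefficient per group, quasi-likelihood F test, Benjamini-Hochberg adjustment over all genes, threshold 0.05). All 7 members passed the filter. KO against WT was also fitted on counts summed per animal label (15597 genes). Standard errors were derived from the F statistic. Likeness used log2(CPM + 1) of tested genes with a logCPM of at least 3, without predicted genes and pseudogenes. The members and lists were chosen with earlier results of these data known. Up to 4 list genes with the smallest p in a comparison could be named, and not all are printed. Ddx3y was chosen after its values were seen. The statistics were tested on simulated data. Counting error is small for Sirt7 and larger for Sirt3, Sirt5 and Sirt6, and the few libraries per group limit every comparison.

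No library repeated another: counts of replicates gave a chi-square of 35.3 to 274 for each degree of freedom. For pairing, deviations of same-numbered libraries from their group means were correlated. Within a genotype r was 0.136 to 0.473 for CD34+ against CD34- a6-high and 0.194 to 0.479 for CD34+ a6-high against a6-low libraries. It was 0.035 to 0.465 between CD34- a6-high and a6-low libraries, and -0.396 to 0.061 between KO and WT. No label gives pairs, and the main fit took none, so its p-values leave out any pairing. The block, run as an alternative, took the animal label for every population comparison and the replicate number for KO against WT, whatever the r. The alternatives tried were a replicate block, the compared groups alone, no filter on low counts, DESeq2 1.42.0, edgeR with DESeq2's scaling, each library left out, and the libraries in doubt left out.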

Additional observations from a re-analysis of the deposited data

Results flagged for a closer look

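In 7 of 35 groups of sirtuin levels tested, the highest library stood apart from the others by more than Dixon's 95% limit. Chance passes that limit in about 1 in 20 independent groups of like values. The groups here share libraries and mix populations or genotypes, so 7 of 35 cannot be set against that rate. Sirt1 was at 42.5 CPM in the a6-low library of KO replicate 2 among the 6 KO-labelled libraries, and at 45.3 CPM in the a6-low library of WT replicate 1 among the 9 WT libraries. Both have the high Itga6 described above. Sirt2 was at 76.5 CPM in the a6-low library of WT replicate 2 among the WT libraries, and Sirt6 was at 10.5 CPM in the same library among the 5 a6-low libraries. Sirt3 was at 9.31 CPM in the CD34+ a6-high library of WT replicate 2 among the 5 libraries of that population. Sirt4 was at 15.7 CPM in the CD34- a6-high library of KO replicate 2 among the KO-labelled libraries. Sirt5 was at 10.9 CPM in the CD34+ a6-high library of WT replicate 3 among the WT libraries.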

How the results depend on the processing

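The count of sirtuin genes called was 0 in each of the 7 comparisons and both interactions under every alternative run, with 1 exception. For CD34+ a6-high against a6-low cells it was 1 (Sirt1, lower) with no filter on low counts, beside 7.55% of all genes. With a replicate block it was also 1 there (Sirt1, lower), beside 11.8% of all genes. The block took the animal label for populations and the replicate number for KO against WT. With it Sirt1 was at -1.09 there (edgeR adjusted p = 0.0266), and it changed no other call of a sirtuin gene. The near-zero change of Sirt6 between CD34+ and CD34- a6-high cells reversed to 0.01 with DESeq2, with its size factors and without the 3 libraries of KO replicate 2, to 0.02 with the block, and with single libraries left out ranged from -0.11 to 0.18, among them 0.05, 0.08 and 0.09. The Sirt6 change between the genotypes over sums ranged from -0.28 to 0.03 with single animal labels left out. Among the 31 log2 changes of sirtuin genes not printed, 16 changed sign in 21 of 207 runs of other alternatives and 25 in 41 of 415 runs with a library left out, and none of those runs passed the threshold. The causes were not tested. The count of all genes called moved by over 1.5 times with tool and block: for CD34+ against CD34- a6-high cells it was 171, against 846 with DESeq2 and 793 with the block, for a6-high against a6-low cells 1, against 227 and 60, and for CD34+ a6-high against a6-low cells 722, against 1565 and 1733. With no filter on low counts these 3 counts were 1242, 602 and 1900, without the 2 a6-low libraries of high Itga6 they were 370, 342 and 979, with the groups compared fitted alone 311, 0 and 422, and without the 3 libraries of KO replicate 2 they were 32, 0 and 116. For KO against WT the count was 1 in each population and over the sums, against 27, 33, 6 and 143 with DESeq2 and 195, 256, 156 and 6 with no filter on low counts, in the order CD34+ a6-high, CD34- a6-high, a6-low and sums. With 2 KO-labelled libraries per population, the 95% intervals of the members are wide, in CD34+ a6-high cells from -0.97 to 0.06 on the log2 scale for Sirt2 and from -0.52 to 2.06 for Sirt1.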
